A study of Mus musculus with 11 samples.

Results

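The dorsal suprachiasmatic nucleus (SCN) of mice kept on 24 h days was compared with that of mice kept on 22 h days, in the 131 windows of 500 bp that the authors listed for this contrast. All rows of the authors' list were taken, so the members are 131 of the 1239 listed windows in the 4 lists of the series, which hold 1181 distinct windows. The windows lay in 94 separate regions (windows at most 1000 bp apart were joined) on 19 chromosomes, and 87 different genes were named by the authors as nearest. Methylated DNA was captured by MeDIP-seq, in which an antibody against 5-methylcytosine pulls down DNA fragments (on average 300 bp here) that are then sequenced. The value of a window is its RPKM, its reads scaled to window length and to the depth of the column.

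Both groups were wild-type C57BL/6Cr1 mice, put on their light-dark cycle at 6 weeks of age for 6 weeks and then left in constant darkness for 3 days; the labels give postnatal day 90 as the age. Brains were taken at circadian time 4, the nucleus was taken in a coronal slice of about 250 µm, and dorsal and ventral pieces were parted by knife. The groups differed in the length of the light-dark cycle, 24 h (T24) or 22 h (T22). The labels give 1 dorsal sample on 24 h days and 2 on 22 h days, but the list holds 1 column per cycle length, so the spread between mice cannot be seen and no test of the difference was possible. How many mice gave each sample is not given in the sources used here, and the labels do not state the sex.

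The SCN is the master circadian pacemaker of the hypothalamus. Its ventral part receives most of the input from the retina, and its dorsal part holds many vasopressin neurons and follows the ventral part. The series title names plasticity of the circadian clock as its subject. Cytosine methylation in mammals falls mostly on CpG dinucleotides, and much of it lies in repeated sequence: satellites beside the centromeres, dispersed retrotransposons and minisatellites. Telomeres, the ends of chromosomes, are arrays of the hexamer TTAGGG, which holds no CpG. Copies of that array also lie inside chromosomes, and fragments of mitochondrial DNA have been inserted into nuclear chromosomes.

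From the step between low RPKM values, 1 read was worth 0.436 RPKM in the 24 h column and 0.349 RPKM in the 22 h column, which gives depths of about 4580000 and 5720000 reads. Of the 131 windows, 122 were lower at 24 h by RPKM (93.1%) and 9 were higher (6.87%), while 111 (84.7%) were at least 2-fold lower and 4 (3.05%) at least 2-fold higher. Because the authors chose these windows on this contrast, the directions and sizes describe the list and test nothing. The median log2 ratio of RPKM, 24 h over 22 h with a pseudocount of 0.1, was -2.40. The log2 fold change in the authors' deposited table minus the log2 ratio of RPKM had a median of -0.47, and 4 windows were higher at 24 h in that table. In the authors' deposited table the unadjusted p-values ran from 4.70e-36 to 9.22e-05.

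Reads were few in most windows. At 24 h, 83 of the 131 windows (63.4%) had under 10 reads and 29 had none; these 29 had 14 to 24 reads at 22 h. No window lacked reads at 22 h. A window with few reads could be listed only at a large fold, so folds of faint and of abundant windows are not compared below as such. Intervals are exact 95% binomial intervals (Clopper-Pearson) on the reads. They cover counting error only and hold no spread between mice, because each group is 1 column. The labels name no marking of PCR copies, so reads may not be independent and the intervals may be too narrow. Fragments averaged 300 bp, so neighbouring windows may also hold reads of the same fragments, which limits sums over a class too. Where no read was counted at 24 h, the fold is a lower bound ("at least") that takes 3 reads for that column. RPKM counts captured reads and is no direct measure of CpG methylation. Of the 131 windows, 19 (14.5%) hold no CpG in their assembled bases, against 8.19% of genome windows. In a piece of tissue, fewer cells that carry a mark, less of the mark per cell and fewer copies of the sequence cannot be told apart.

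Most windows lay in repeated sequence. Of the 131, 42 (32.1%) were mostly unique, meaning that at least 50% of their 31-base words occur once in the mm9 genome, against 86.1% of 5117 windows taken at every 1000th place of the same grid. Each window was put in the first class that it met: TTAGGG repeat (at least 4 copies on either strand) or beside one, mitochondrial-like, GGAAT repeat (at least 4 overlapping pairs of GGAAT in tandem on either strand) or beside one, other tandem repeats, and retrotransposon-type. "Beside" means that the neighbouring 500-bp window holds the repeat. By these rules 12 windows (9.16%) were left with none of the features, against 90.7% of the genome sample. How the authors placed reads that match several places is not given in the sources used here, so in repeated sequence a value may belong to any copy.

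**Figure D1:**
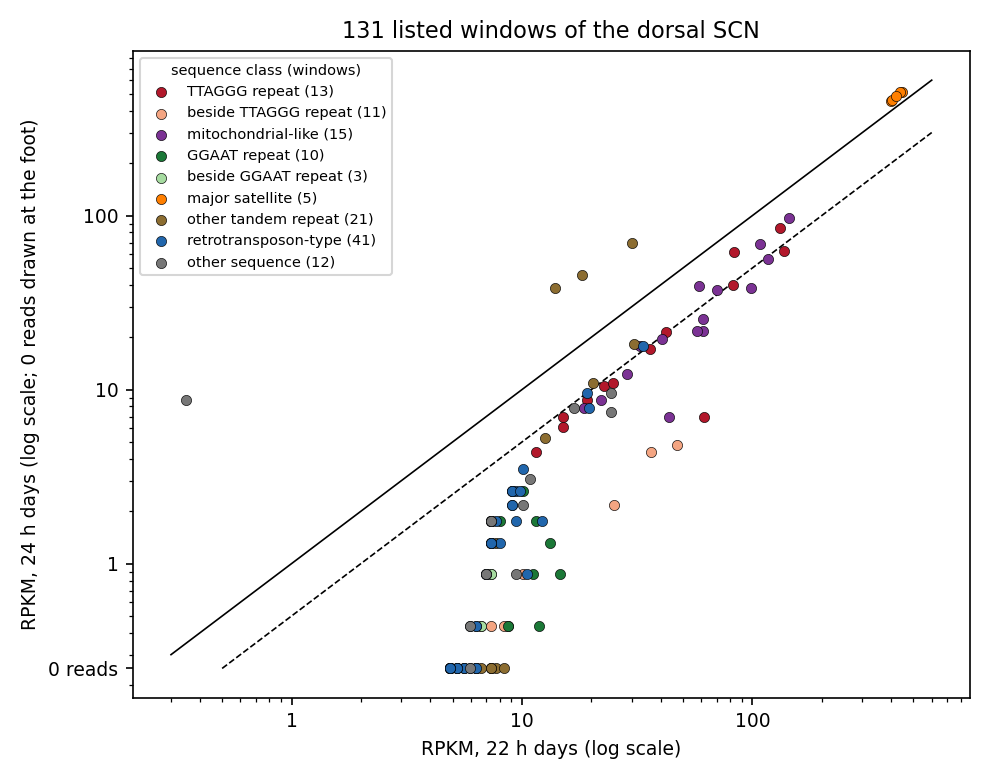
RPKM of the 131 listed windows at 22 h (x axis) and 24 h (y axis), both on log scales, coloured by sequence class; the solid line marks equal values, the dashed line a 2-fold lower value at 24 h, and windows with 0 reads at 24 h are drawn at the foot. Most windows lie below the dashed line, the 5 satellite windows lie just above the solid line at 399 to 513 RPKM, and 4 windows lie far above it.

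In 24 of the 131 windows (18.3%) the TTAGGG repeat lay in the window or the next one, against 0.0809% of the 5116453 windows of the genome. In the dorsal list for 24 h against 26 h days it was 10 of 79 windows (12.7%). All 24 were listed as lower at 24 h, as was 93.1% of the whole list. They fell in 18 regions, and 7 lay within 1000 bp of the end of a chromosome assembly. The 13 windows that hold the repeat had a median of 10.9 RPKM at 24 h and 36.0 RPKM at 22 h. Over their summed reads (784 against 1954) they were 1.996-fold lower at 24 h (95% interval 1.84 to 2.17). The median window of this kind held 1 CpG and 5 held none.

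Arrays at the ends of 5 chromosome assemblies were listed. The last full window of chromosome 2 (chr2:181747501-181748000, nearest Gm14496) holds 78 copies of TTAGGG and had 85.1 RPKM at 24 h and 132.1 RPKM at 22 h, 1.55-fold lower at 24 h (1.30 to 1.85). The last full window of chromosome 18 (chr18:90771501-90772000, nearest Tmx3, a thioredoxin-related membrane protein gene) holds 73 copies and had 62.4 against 137.0 RPKM, 2.20-fold lower (1.81 to 2.68). At the end of chromosome X (chrX:166650001-166650500, nearest G530011O06Rik) the values were 61.5 and 82.8 RPKM, 1.35-fold lower (1.09 to 1.67), the smallest of the folds given for lower windows. The ends of chromosome 11 (nearest Ptchd3; 21.4 against 42.3 RPKM) and chromosome 5 (nearest Rfc3, a subunit of the clamp loader of DNA replication; 10.9 against 24.8 RPKM) were 1.98-fold and 2.27-fold lower.

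Arrays farther than 1000 bp from an assembly end were listed too. An array on chromosome 14 (chr14:86598501-86599000, nearest 4930529K09Rik, 24 copies) had 17.0 against 36.0 RPKM, 2.11-fold lower (1.45 to 3.14). A window in an intron of Hsd11b1, which encodes an enzyme that reactivates glucocorticoids, holds 18 copies and had 10.5 against 22.7 RPKM. A shorter run was listed near Cenpw, a centromere protein gene (12 copies, 4.36 against 11.5 RPKM). Another lay near Tnks, which encodes tankyrase (7 copies, 8.73 against 19.2 RPKM). The pair of windows nearest D030025E07Rik, with 6 copies each, had 6.11 and 6.98 RPKM at 24 h and 15.03 RPKM each at 22 h. None of these 5 sites lies within 1000 bp of an assembly end.

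The 11 windows beside a TTAGGG array held 35 reads at 24 h and 482 at 22 h in all, 11.0-fold lower at 24 h (7.82 to 16.0), and the median window had 0.44 against 8.39 RPKM. The window after the chromosome 14 array, which holds no TTAGGG, had 2.18 against 25.2 RPKM (5 and 72 reads; 11.5-fold lower, 4.72 to 36.6). After the array of chromosome X at chrX:166527001-166527500 (55 copies; 40.2 against 82.5 RPKM), the next window had 4.80 against 47.2 RPKM (11 and 135 reads; 9.83-fold lower, 5.32 to 20.2), with 6 of its 500 bases known in the assembly. The window that runs past the end of chromosome 2, with 87 assembled bases, had 4.36 against 36.4 RPKM, 8.33-fold lower (4.35 to 17.9). At the end of chromosome 18 the window with the last 31 assembled bases, which hold 4 copies of the repeat, had 6.98 against 61.9 RPKM (16 and 177 reads), 8.86-fold lower (5.31 to 15.8), and this window had the smallest p-value of the authors' deposited table. These folds belong to windows listed for this contrast, so the difference between an array and the window next to it was not tested. Fragments of an array can reach into the next window, so the 2 values need not be separate, above all where few bases are assembled. Near Cenpw the array was 2.64-fold lower (1.27 to 6.01), and the next window had 0 and 6.29 RPKM, which makes it at least 4.80-fold lower.

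**Figure D2:**
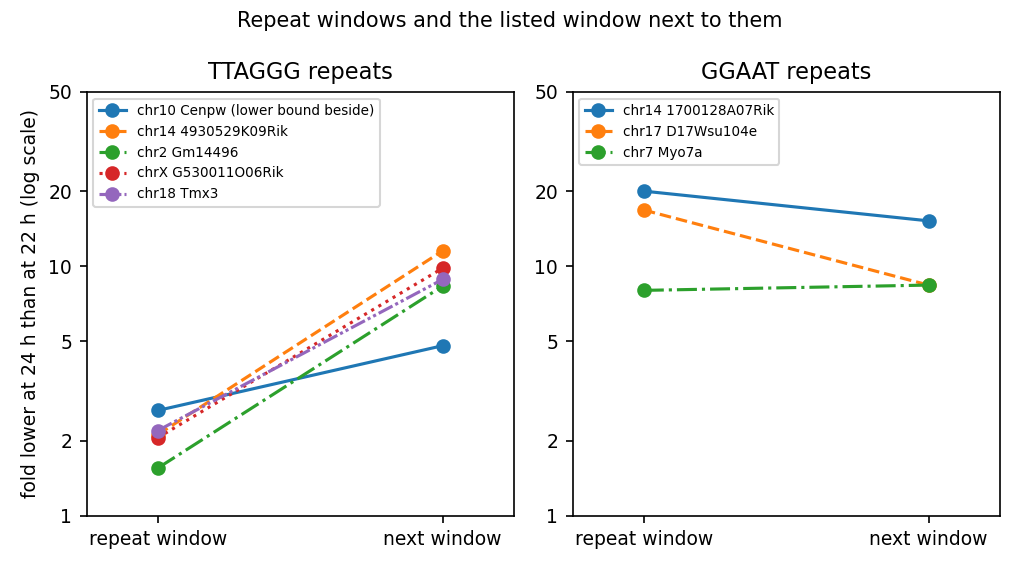
Fold by which RPKM was lower at 24 h than at 22 h (log scale) in a repeat window and in the listed window next to it, 1 line per pair, for TTAGGG (left, 5 pairs) and GGAAT repeats (right, 3 pairs). The TTAGGG values run from 1.55 to 2.64-fold in the array to 4.80 to 11.5-fold beside it (the Cenpw value beside the array is a lower bound), while the GGAAT lines stay between 8.01 and 20.02-fold. A window with few reads could be listed only at a large fold, so the slopes of the lines are no separate result.

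The other windows beside TTAGGG arrays were listed without their array and were faint. In an intron of Bbox1, which encodes an enzyme of carnitine synthesis, 1 read was counted at 24 h and 25 at 22 h (0.44 against 8.74 RPKM; 20.02-fold lower, 3.28 to 822). Near Tbl1xr1, a subunit of a transcriptional corepressor complex, the reads were 1 and 24 (19.2-fold lower, 3.13 to 790). The windows near Mkx, a homeobox gene (1 and 21 reads), Ikzf2, a zinc finger factor of lymphocytes (1 and 19 reads), Marcks, a protein kinase C substrate (2 and 29 reads), and 4933402J15Rik (3 and 21 reads) were 16.8-fold, 15.2-fold, 11.6-fold and 5.61-fold lower. In an intron of Rims1, a scaffold of the presynaptic release site, 14 reads were counted at 22 h and 0 at 24 h (a bound of 3.73-fold). All 7 windows had 3 reads or fewer at 24 h, so their intervals are wide. The windows near Mkx and Tbl1xr1 were not mostly unique (15.1% and 36.2% of their words occur once), so their reads may come from other copies.

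The GGAAT repeat is rarer in the genome than TTAGGG. Of all 5116453 genome windows, 39 (0.000762%) hold it, against 1672 (0.0327%) for TTAGGG, and 10 of these 39 (25.6%) were listed. With 3 windows beside such repeats, 13 of the 131 (9.92%) lay in or beside one, against 0.00225% of the genome. The share was larger in the dorsal list for 24 h against 26 h days, 31 of 79 windows (39.2%). All 13 were listed as lower at 24 h, as was 93.1% of the whole list, and all 13 were mostly unique by their 31-base words. They lay in 10 regions on 8 chromosomes. The 10 repeat windows had 0.44 to 2.62 RPKM at 24 h and 6.99 to 14.7 RPKM at 22 h. A window with few reads could be listed only at a large fold, so the gap between these ranges is no separate result. Over summed reads, 28 against 297, they were 8.49-fold lower (5.76 to 13.0). The 3 windows beside them were 9.77-fold lower (3.97 to 31.2).

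The window nearest AA545190 (chr6:10136001-10136500) had the largest fold among windows with reads at 24 h, 0.44 against 11.9 RPKM (1 and 34 reads; 27.2-fold lower, 4.57 to 1107). The repeat nearest 1700128A07Rik on chromosome 14 had 0.44 against 8.74 RPKM (20.02-fold lower, 3.28 to 822), and the window before it 0.44 against 6.64 RPKM. In an intron of Dpp9, which encodes a dipeptidyl peptidase (nearest D17Wsu104e in the authors' deposited table), the repeat had 0.87 against 14.7 RPKM (2 and 42 reads; 16.8-fold lower, 4.37 to 143) and the window next to it 0.87 against 7.34 RPKM. No other GGAAT window had as high a 22 h value as the Dpp9 repeat.

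Near Olfr854, an olfactory receptor gene, the values were 0.87 and 11.2 RPKM (12.8-fold lower, 3.27 to 110), and near Gm13580 they were 1.31 and 13.3 RPKM (10.1-fold lower, 3.22 to 51.4). In an intron of Myo7a, the myosin of inner ear hair cells, the repeat had 0.87 against 6.99 RPKM and the window before it 0.87 against 7.34 RPKM. The repeats near Gm4736 (1.75 against 11.5 RPKM), 4930521E06Rik (1.75 against 8.04 RPKM), Cyr61, a secreted matrix protein gene (1.31 against 7.34 RPKM), and Gm17644 (2.62 against 10.1 RPKM) were 6.61-fold, 4.60-fold, 5.61-fold and 3.87-fold lower. Gm17644 held the most CpG of the group, 7, where the median GGAAT window held 1.5.

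**Figure D3:**
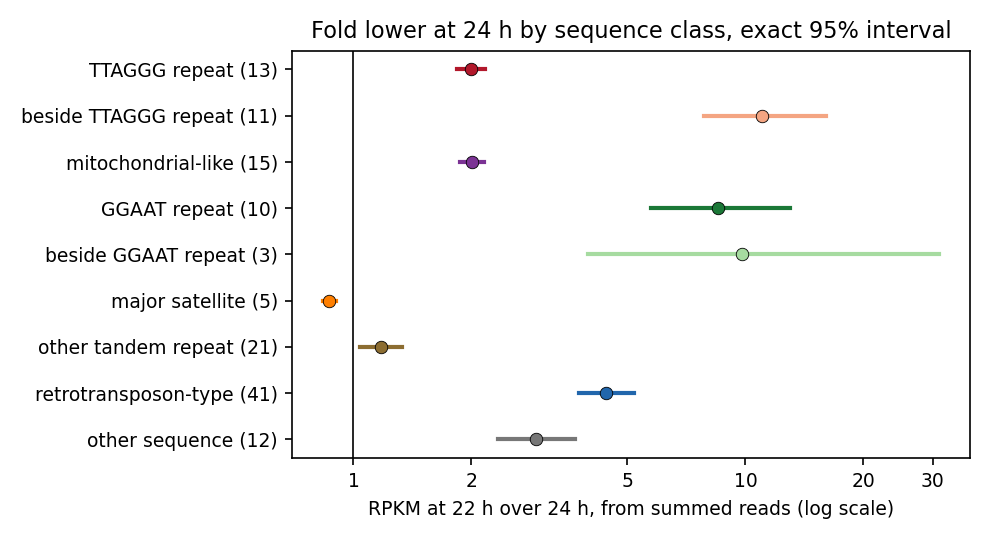
Fold by which RPKM was lower at 24 h than at 22 h, from the summed reads of each sequence class (log scale), with exact 95% intervals and the number of windows in parentheses; a value left of the line at 1 is higher at 24 h. The classes range from 0.868 for the satellite to 11.0 for windows beside TTAGGG arrays, and other tandem repeats hold 18 lower and 3 higher windows. A window with few reads could be listed only at a large fold, so the order of the classes is no separate result.

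Of the 131 windows, 15 (11.5%) matched mitochondrial DNA over at least 80% of their length at 90% identity or more, and no window of the genome sample did. In the other lists the share was 2.53% (dorsal, against 26 h), 0.123% (ventral, against 22 h) and 15.2% (ventral, against 26 h). The median identity of the 15 windows was 100%, so for most of them reads of mitochondria and reads of the nuclear copy cannot be told apart. They form 2 blocks. All 15 were lower at 24 h, as was 93.1% of the whole list, by 2.005-fold over summed reads (1098 against 2749, 95% interval 1.87 to 2.15). The block on chromosome 1, chr1:24618001-24623500, nearest Col19a1, a collagen gene 24.0 to 28.98 kb away, holds 11 listed windows, 9 of them mitochondrial-like. Its levels ran from 0.87 to 96.9 RPKM at 24 h and from 10.5 to 143.6 RPKM at 22 h, and each window was lower at 24 h. The profile had 2 peaks in both columns, at chr1:24619001-24619500 (96.9 against 143.6 RPKM, 1.48-fold lower, 1.26 to 1.75) and at chr1:24621001-24621500 (56.3 against 116.4 RPKM, 2.07-fold lower). Between them, at chr1:24620001-24620500, the values were 6.98 and 43.3 RPKM (16 and 124 reads), 6.21-fold lower (3.67 to 11.2). The last window, chr1:24623001-24623500, matches mitochondrial DNA over 5.4% of its length and had 0.87 against 10.5 RPKM (12.01-fold lower, 3.05 to 104).

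The block on chromosome 2, chr2:22443001-22446000, lies 32.1 to 34.6 kb from the start of Gad2, which encodes one of the enzymes that make GABA, the main transmitter of SCN neurons. Its 6 windows had 7.86 to 39.3 RPKM at 24 h and 18.5 to 58.7 RPKM at 22 h, and were 1.49-fold to 2.52-fold lower. Its sequence is a mitochondrial copy at 95.9% to 98.6% identity, and no window of Gad2 itself was listed. In the annotation (GENCODE M1) all 15 mitochondrial-like windows count as promoters, through the predicted genes Gm10222, Gm10925, Gm13339, Gm13340 and Gm13341 inside the 2 blocks. A partial match was seen in a window between genes, nearest 1700019M22Rik (72.6% of the window; 7.42 against 24.5 RPKM, 3.30-fold lower, 1.92 to 5.98) and near Eea1, an endosome protein gene (68.4% of the window; 0.87 against 9.44 RPKM).

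**Figure D4:**
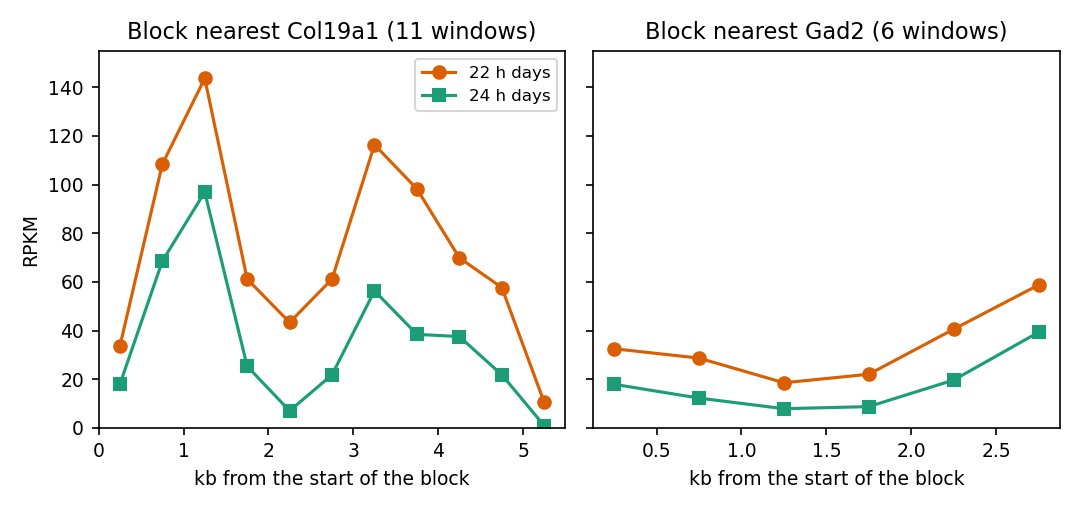
RPKM of the listed windows along the 2 mitochondrial-like blocks (x axis, kb from the start of the block) at 22 h (circles) and 24 h (squares), 1 column each. The 24 h line lies under the 22 h line in all 11 windows nearest Col19a1 and all 6 nearest Gad2, and both lines have the same peaks.

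By RPKM 9 of the 131 windows were higher at 24 h (6.87%), and 8 of these are tandem repeats that hold 7 to 26 CpG. Shown are 3 units of the array near Cartpt (chr13:100672501-100672578), 5 units of that in Ntan1 (chr16:13825251-13825335), a stretch of the satellite on chromosome 9 (chr9:3014001-3014234) and the start of the window near Trpc7 (chr13:57416001-57416120). For contrast, 3 units of the array in Acsl6 (chr11:54140001-54140078) and 2 of the array near 1700080N15Rik (chr2:3882001-3882084) are from windows with no read at 24 h. Both windows are among 10 without CpG, of the 18 other tandem repeats lower at 24 h. An array in Taok3 with no read at 24 h holds 10 CpG in its window. Capitals mark CpG (mm9, plus strand).
Cartpt array: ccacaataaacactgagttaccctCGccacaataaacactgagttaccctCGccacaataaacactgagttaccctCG
Ntan1 array: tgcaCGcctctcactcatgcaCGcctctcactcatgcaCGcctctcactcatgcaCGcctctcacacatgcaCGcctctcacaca
chr9 satellite: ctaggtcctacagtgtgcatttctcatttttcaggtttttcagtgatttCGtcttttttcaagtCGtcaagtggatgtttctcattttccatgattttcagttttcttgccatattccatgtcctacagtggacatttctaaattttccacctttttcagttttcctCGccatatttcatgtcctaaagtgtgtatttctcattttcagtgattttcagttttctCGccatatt
Trpc7 window: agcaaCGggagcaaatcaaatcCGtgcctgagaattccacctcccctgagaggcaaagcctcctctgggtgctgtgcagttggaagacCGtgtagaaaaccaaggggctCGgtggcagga
Acsl6 array: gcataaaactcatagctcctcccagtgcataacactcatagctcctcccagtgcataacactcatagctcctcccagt
1700080N15Rik array: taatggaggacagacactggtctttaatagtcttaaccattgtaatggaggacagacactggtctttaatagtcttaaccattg

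The window 2.11 kb from the start of Cartpt had 69.4 RPKM at 24 h and 30.1 RPKM at 22 h (159 and 86 reads), 2.31-fold higher at 24 h (1.77 to 3.04). Cartpt encodes the precursor of the CART peptides, which are abundant in the hypothalamus, and it was the one gene of the list of SCN neuropeptides and receptors that was nearest a window. The window is an array of a 26-bp unit with 19 CpG in all. The window in an intron of Ntan1, which encodes an amidase of protein N-termini, had 38.4 against 13.98 RPKM (88 and 40 reads; 2.75-fold higher, 1.87 to 4.10) and is an array of a 17-bp unit with 26 CpG, the most of any listed window. A window in an intron of Itgad, an integrin subunit of leukocytes, had 45.8 against 18.2 RPKM (105 and 52 reads; 2.52-fold higher, 1.79 to 3.59), with a 30-bp unit and 7 CpG. These 3 arrays were also higher at 24 h in the authors' deposited table, by a log2 fold change of 0.94 for Cartpt, 1.05 for Ntan1 and 0.96 for Itgad.

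The fourth window high at 24 h lies 419 kb from Trpc7, a cation channel gene, and is mostly unique sequence with 11 CpG. It had 8.73 against 0.35 RPKM (20 and 1 reads), 24.98-fold higher at 24 h (3.995 to 1035). It was the one mostly unique window higher at 24 h, among 41 lower. The same position was in no other list.

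The 5 windows nearest Mir101c, a microRNA gene, lie in the first assembled stretch of chromosome 9, in a tandem repeat with the unit length of the major satellite of mouse pericentromeres (1 unit is shown above). They had 454 to 513 RPKM at 24 h and 399 to 444 RPKM at 22 h, the highest levels of the list, and hold 5554 of the 8222 reads of all listed windows at 24 h. Each was higher at 24 h by RPKM, 1.15-fold over summed reads (1.11 to 1.19). In the authors' deposited table the same 5 windows are lower at 24 h, with log2 fold changes of -0.26, -0.26, -0.26, -0.25 and -0.26, so their direction depends on the scaling. They count as promoters through predicted genes inside the satellite (Gm10716, Gm10717, Gm10719, Gm10720, Gm10721 and Gm16869).

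The class of other tandem repeats also held 18 windows lower at 24 h. Their units ran from 16 bp (nearest Ngp) to 156 bp (nearest Gm21119), so not all need be minisatellites. These 18 windows had a median of 0 RPKM at 24 h and 6.99 RPKM at 22 h, 13 had no read at 24 h, and they were 4.44-fold lower over summed reads (83 against 460; 3.51 to 5.68). Of these, 10 hold no CpG, where the 3 higher minisatellites hold 7, 19 and 26. The array near 1700080N15Rik (chr2:3882001-3882500 is its first listed window), with a 42-bp unit, was listed in 5 windows. Each had 0 reads at 24 h and 16 to 21 reads at 22 h, with bounds of 4.27-fold to 5.61-fold lower, and 4 of the 5 have no CpG. The array in an intron of Acsl6, which encodes an enzyme that activates long fatty acids, has a 26-bp unit, as the Cartpt array has. It holds no CpG and had 0 against 7.34 RPKM, a bound of 5.61-fold.

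Further minisatellites lay in introns of Trip11 (nearest Fbln5, a matrix protein gene; 59-bp unit, 0 and 0.44 against 7.69 and 6.29 RPKM), Atl1 (nearest Gm3086; 31-bp unit, 1.31 and 0 against 7.69 and 6.29 RPKM) and Pde5a (nearest 4930447N08Rik; 56-bp unit, 0 against 4.89 and 5.59 RPKM). In an intron of Taok3 (nearest Pebp1), a 38-bp unit with 10 CpG in the window had 0 against 4.89 RPKM, so that CpG were not absent from all windows without reads. Smaller folds were seen for the arrays in Dlgap2, a postsynaptic scaffold gene (10.9 against 20.3 RPKM, 1.86-fold lower, 1.14 to 3.10), in Klhl18 (nearest Ngp; 5.24 against 12.6 RPKM) and in Mid1 (18.3 against 30.8 RPKM, 1.68-fold lower, 1.15 to 2.48). Over the whole list the median was 4 CpG per window in the lower and 11 in the higher windows, and 26 of the 122 lower windows held at least the 7 CpG of the least CpG-rich higher window. The median genome window holds 3 CpG.

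Dispersed retrotransposon-type sequence made up the largest class, 41 of 131 windows (31.3%), against 8.50% of the genome sample. In the ventral list for 24 h against 22 h days the share was 34.0%. In the dorsal and ventral lists against 26 h days it was 6.33% and 1.84%. The 41 windows shared at least 30% of their 31-base words with genomic stretches around long open reading frames of the reverse transcriptase type. Of them, 37 shared as many or more words with LINE-1 frames as with frames of LTR elements. In some windows both shares were equal or close (100% each in Lsamp, 87.2% and 87.0% nearest Fhl2), so this count does not assign a type. All 41 were lower at 24 h, as was 93.1% of the whole list. They had a median of 1.31 RPKM at 24 h and 7.34 RPKM at 22 h, 13 had no read at 24 h, and over summed reads (181 against 996) they were 4.41-fold lower (3.76 to 5.19). The median word of such a window occurs 3934.5 times in the genome, so these values cannot be assigned to the genes that they are named after. A run of 31 bases that 12 of the 41 windows share is shown in capitals in 4 of them (mm9, plus strand: chr1:156091736-156091806, chr15:31003508-31003578, chr15:50316737-50316807, chr17:4083688-4083758). It is found, on either strand, in 0.213% of genome windows.
4930532M18Rik window: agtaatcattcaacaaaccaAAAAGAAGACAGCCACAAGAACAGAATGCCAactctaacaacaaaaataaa
4930430F21Rik window: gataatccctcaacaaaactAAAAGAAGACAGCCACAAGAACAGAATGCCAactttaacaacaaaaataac
Mir1907 window: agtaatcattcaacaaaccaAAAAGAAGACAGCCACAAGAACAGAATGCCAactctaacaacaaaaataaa
4930470H14Rik window: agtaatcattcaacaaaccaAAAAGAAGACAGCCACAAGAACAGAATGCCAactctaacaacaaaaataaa

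Of the 41 windows, 34 fell into 5 families that share at least 50 such words with another member, and the largest family had 24. The window nearest 4930470H14Rik, with 1.75 against 9.44 RPKM, lies 0.756 kb from a start site in the authors' deposited table and was the one window within 1 kb by that measure. A window in an intron of Lsamp, a cell adhesion molecule of limbic neurons, had 2.62 against 9.44 RPKM (6 and 27 reads; 3.603-fold lower, 1.46 to 10.7). The largest folds were near Cd36, a fatty acid receptor gene (1 and 18 reads; 14.4-fold lower, 2.28 to 601), and, in an intron of Tmprss15, nearest Chodl, a membrane protein gene (1 and 17 reads; 13.6-fold lower, 2.13 to 569). These pairs of counts recur: 10 windows of the whole list had exactly 0 reads at 24 h and 14 at 22 h, the fewest with which a window without reads at 24 h was listed.

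The remaining 12 windows met none of the rules, among them the partial mitochondrial matches above. Apart from Trpc7, 11 were lower at 24 h, and their median was 1.75 against 9.44 RPKM. The only exonic windows of the list were a pair in Sfi1, a centrin-binding protein gene of the centrosome, at chr11:3079001-3079500 (1.75 against 7.34 RPKM, 4.20-fold lower, 1.42 to 16.8) and chr11:3079501-3080000 (7.86 against 16.8 RPKM, 2.14-fold lower, 1.22 to 3.90). On chromosome X, a window with 15 CpG in an intron of Mid1 and of the overlapping predicted gene Gm15726 had 3.06 against 10.8 RPKM, 3.55-fold lower (1.53 to 9.54). The pair at the start of Gm15726, of which the second is retrotransposon-type by its words, had 9.60 RPKM each at 24 h and 24.5 and 19.2 RPKM at 22 h, 2.55-fold and 2.002-fold lower. They hold 19 and 14 CpG and are the 2 promoter windows outside the mitochondrial-like blocks and the satellite. Mid1, which encodes a ubiquitin ligase, crosses the border of the pseudoautosomal region in C57BL/6 mice. Other windows of this kind lay near Six3os1, a noncoding RNA gene beside a homeobox gene of the forebrain (2 and 20 reads; 8.01-fold lower, 1.95 to 70.7), in an intron of Lrp1b (nearest Mir6336; 0 and 17 reads; a bound of 4.54-fold), in an intron of Cyp4v3, a cytochrome P450 gene (4 and 21 reads; 4.20-fold lower, 1.42 to 16.8), and nearest Mir6372 (1 and 17 reads; 13.6-fold lower, 2.13 to 569).

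By position, 22 windows (16.8%) lay within 1000 bp of a transcript start, 2 (1.53%) in exons, 29 (22.1%) in introns and 78 (59.5%) between genes. In the genome sample the shares were 5.16%, 4.71%, 32.6% and 57.6%. Of the 22 promoter windows, 15 were mitochondrial-like and 5 satellite. The median distance to the start site given in the authors' deposited table was 44.3 kb, and 48 windows lay more than 100 kb away. Of the 16 gene lists, with 542 genes, 3 had a gene nearest a window: Cartpt among 47 neuropeptides and receptors (1 window, higher), Gad2 among 42 GABA and chloride transport genes (6 windows, lower), and Lsamp among 75 adhesion genes (1 window, lower). No window was nearest any of the 30 circadian clock genes, the 20 genes of the methylation machinery or the 53 voltage-gated and pacemaker ion channel genes. The same held for the 46 genes of light input and second messengers, the 39 imprinted genes, and the markers of neurons, astrocytes, oligodendrocytes, microglia or vessels. Trpc7, a cation channel gene outside the channel list, was nearest a window. In all, only 87 genes were nearest a window, and the share over all genes was not worked out. Few or no hits in lists of this size are therefore no result about these gene groups. Windows outside the list were not analysed here, so the lack of a nearest window does not show that those genes were alike in both columns.

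The dorsal list for 24 h against 26 h days shares the 24 h column. Of the 131 windows, 26 (19.8%) are also among its 79 windows (32.9%), and all 26 are lower at 24 h in both, where 78.5% of the second list is. They include all 13 windows in or beside GGAAT repeats, 10 in or beside TTAGGG repeats, 2 mitochondrial-like windows and the intronic window of Mid1. Because the low 24 h value is the same value in both lists, the second list is no independent support for it. What the second list adds is the 26 h level. In all 13 GGAAT windows RPKM was higher at 26 h than at 22 h, by 1.04 to 2.58 times (median 1.89). The repeat nearest AA545190, for example, had 11.9 RPKM at 22 h, 0.44 at 24 h and 21.1 at 26 h, and that nearest Gm4736 had 11.5, 1.75 and 22.5 RPKM.

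The 10 TTAGGG windows that stand in both dorsal lists mostly had the other order. The other listed TTAGGG windows have no 26 h value here. In 9 of the 10, RPKM was lower at 26 h than at 22 h (median 0.716 times; range 0.482 to 1.14). The array at the end of chromosome 18 had 137.0 RPKM at 22 h, 62.4 at 24 h and 94.3 at 26 h, and that at the end of chromosome 2 had 132.1, 85.1 and 102.9 RPKM. The exception was the Rims1 window, with 4.89 RPKM at 22 h and 5.55 at 26 h. The 22 h and 26 h values come from different lists, each scaled to its own column's reads, and their difference was not tested. No intervals were worked out for these ratios, and some pairs of reads were nearly equal. The window beside the Cenpw array had 18 reads at 22 h and 17 at 26 h. For the window beside the GGAAT repeat nearest 1700128A07Rik the reads were 19 and 20.

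**Figure D5:**
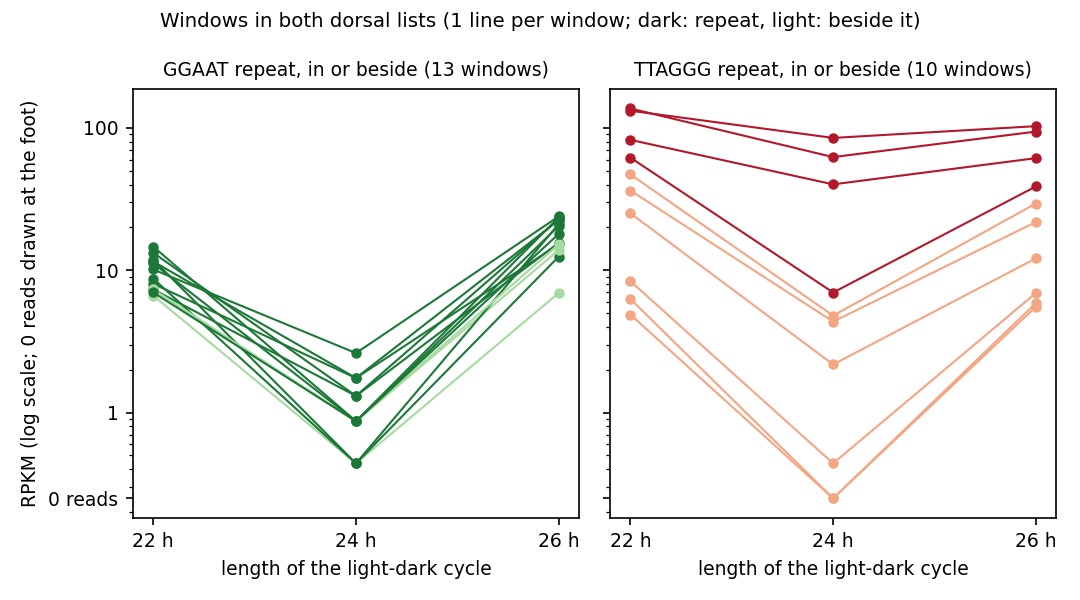
RPKM at 22 h, 24 h and 26 h (log scale, 1 line per window) of the windows that stand in both dorsal lists, for GGAAT (left, 13 windows) and TTAGGG repeats (right, 10 windows); dark lines are windows with the repeat, light lines windows beside it, and 0 reads are drawn at the foot. All 13 GGAAT lines end higher at 26 h than they start at 22 h, and 9 of the 10 TTAGGG lines end lower.

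The ventral lists come from other samples. No window was shared with the 812 windows of the ventral list for 24 h against 22 h, the same contrast in the neighbouring tissue piece, and that list holds no GGAAT window and 8 in or beside TTAGGG repeats, 5 of them higher at 24 h (24.3% of that list is higher). The ventral list for 24 h against 26 h shares 24 windows (18.3% of the 131 and 11.1% of its 217). All 15 mitochondrial-like windows are among the 24, and each is lower at 24 h there too, as is 73.3% of that list: the window at chr1:24620001-24620500 had 40.5 RPKM at 24 h and 110.9 RPKM at 26 h in the ventral piece. The pair between genes nearest 1700019M22Rik (21.8 against 51.7 and 8.79 against 24.4 RPKM), 1 window of Sfi1 (4.97 against 13.4 RPKM) and the tandem repeat near 4930467E23Rik (13.4 against 24.6 RPKM) were also lower at 24 h in the ventral list. The arrays at the ends of chromosomes 18 and 2 were the 2 of the 24 windows that were higher at 24 h in the ventral piece, as 26.7% of that list is.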

How the data were processed

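MeDIP-seq values of the dorsal SCN were taken from the authors' list for 24 h against 22 h days. Reads were aligned with BWA to mm9, per the submitters' processing notes, with no version given. Per the file headers the authors deposited RPKM for each cycle length, as 1 column each. A column named counts is a rescaled score in the deposited table, not reads, and was not used. In the 4 files, 8 columns that repeat the RPKM were not used. Per the file headers the log2 fold change and the unadjusted p-value of each window come from edgeR as run by the authors; with 1 column per group they compare columns, not groups of mice. The criteria for listing are not given in the sources used here.

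The read number of each window was worked out from the deposited RPKM, whose values under 10 were all whole multiples of 1 read within 0.01 RPKM. No test across groups was made. Windows were matched to mm9 (NCBIM37) and GENCODE M1. Words of 31 bases were counted over the genome, short tandem repeats were 15-base words recurring within 100 bp in at least 30% of the window, and longer units were called from 60% identity at a period of up to 260 bp. BLAST 2.17.0 served for the mitochondrial match. Read recovery, intervals and word counts were tested on simulated data.

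The software was scipy 1.17.1 and pandas 2.3.3 under Python 3.11.15, with figures from matplotlib 3.10.9. The members, the 16 gene lists and the settings were chosen with earlier results of these data known, and the telomere, GGAAT and retrotransposon classes after the windows' sequences had been seen. Named are the 15 nearest genes with the largest folds, all windows higher at 24 h, in promoters or exons, nearest a listed gene, in runs of at least 3, the 5 most abundant, and those in another list, as examples or ranges; a few more were named after their values were seen. The sequences of the telomere-type and GGAAT arrays are not reported here.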

Additional observations from a re-analysis of the deposited data

Results flagged for a closer look

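In 2 windows of the list the dorsal and ventral pieces differed in direction for the same contrast, 24 h against 26 h days; with 1 column per group, the difference was not tested. The TTAGGG array at the end of chromosome 18 (nearest Tmx3) had 62.4 RPKM at 24 h and 94.3 RPKM at 26 h in the dorsal piece, 1.51-fold lower at 24 h (95% interval 1.23 to 1.86), but 155.6 and 115.1 RPKM in the ventral piece, 1.35-fold higher (1.19 to 1.54). The array at the end of chromosome 2 (nearest Gm14496) had 85.1 and 102.9 RPKM in the dorsal piece, 1.21-fold lower (1.01 to 1.46), but 154.9 and 111.3 RPKM in the ventral piece, 1.39-fold higher (1.22 to 1.59). Intervals cover counting error only.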

How the results depend on the processing

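No paired analysis was possible because each group is 1 pooled column, and for the same reason no replicate could be left out. The direction of 97 of the 102 single windows with reads at 24 h was the same with the authors' log2 fold change, while the 5 windows nearest Mir101c turned from higher to lower (log2 fold changes of -0.26, -0.26, -0.26, -0.25 and -0.26). On that scale 4 windows were higher at 24 h, and the median log2 ratio was -3.03 in place of -2.40. Among mostly unique windows alone 41 were lower and 1 higher (median -2.76), and at an authors' p of at most 1e-05, 60 and 1 (median -2.53). The median was -1.85 with a pseudocount of 1 RPKM and -2.59 without mitochondrial-like windows. By the authors' distance, 1 window in place of 22 lay in a promoter. Within 1000 bp, 1 window in place of 0 met the ventral 22 h list. The cause was not tested. Alternatives chosen after seeing the data (10 copies of a repeat, 50% of words, windows with under 500 known bases left out, the mitochondrial-like window with the largest fold left out) left 21 TTAGGG, 12 GGAAT and 37 retrotransposon-type windows and gave folds within their intervals. Values from under 10 reads limit 83 windows to wide intervals.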
